A study of Homo sapiens with 6 samples.

Results

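The genes described here are 10 members of the interleukin-6 family and its signalling path, taken by gene name from a deposited table of 60623 genes. They comprise the ligands IL6, IL11, LIF and CLCF1, the receptor chains IL6R, IL6ST, LIFR and OSMR, the transcription factor STAT3 and the inhibitor SOCS3. Each name matched 1 row. RNA came from LX2 cells, an immortalised human hepatic stellate cell line, labelled a non-parenchymal liver cell, that serves as a culture model of liver fibrosis. The siNC group (3 libraries, labelled wild type) received a control siRNA. The siSHMT2 group (3 libraries, labelled as SHMT2 knockdown) received an siRNA against SHMT2, the mitochondrial serine hydroxymethyltransferase. All 6 were kept in 2% serum and collected 36 h after transfection. All libraries come from this 1 line, and neither siRNA sequence nor the number of siRNAs per target is given in the sources used here.

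Most cytokines of this family signal through IL6ST, the shared chain also called gp130. IL6 first binds IL6R, which gives the ligand specificity and has no signalling activity of its own, and the pair then engages IL6ST. IL11 works in the same way through its own alpha chain, whereas LIF binds LIFR paired with IL6ST, and OSMR pairs with IL6ST to bind oncostatin M. Kinases of the JAK family bound to these chains phosphorylate STAT3, and STAT3 induces SOCS3, which blocks the receptor in a negative feedback. In the liver, IL6 drives the acute phase response of hepatocytes, and stellate cells are a known source of IL6, IL11 and LIF.

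Recovered whole reads summed to between 14722344 and 15669139 per library. SHMT2 was depleted as labelled, with FPKM (fragments per kilobase of gene, scaled to library size) of 40.8, 56.3 and 45.1 in siNC and 2.26, 2.10 and 2.42 in siSHMT2. COL1A1, a collagen chain made by stellate cells, stood at 221 ± 27.6 FPKM in siNC and 206 ± 22.0 in siSHMT2 (SD, n = 3), and the receptor PDGFRB at 2.34 ± 0.528 and 1.89 ± 0.115. Of 9 tested stellate markers, VIM and COL6A1 were called lower, beside 9.85% of all genes tested, and the summed FPKM of all 13 ran from 1949.5 to 2844.8 in siNC and from 1494.7 to 1718 in siSHMT2. Its part in the results below was not tested. The stellate sum came mostly from VIM (823 in siNC and 501 in siSHMT2 on average) and TIMP1 (990 and 654). The retinoid enzyme LRAT was listed at 0 in every library. Also scarce were ACTA2 (0.427 and 0.782 on average), DES (0.124 and 0.0744) and PDGFRA (0.0164 and 0.0259). With LRAT these were the 4 of 13 stellate markers with a mean below 1 FPKM, the minimum for testing. The 7 hepatocyte markers, among them ALB, had summed FPKM between 0.332 and 1.36 in siNC and between 0.299 and 0.457 in siSHMT2. The 6 endothelial markers, PECAM1 included, summed to 0.416 to 0.626 and 0.310 to 0.435. The 7 macrophage and leukocyte markers summed to 14.8 to 20.1 and 13.8 to 15.8, of which CD14 gave 16.8 ± 2.57 and 13.8 ± 0.934, while PTPRC was at 0.00416 and 0.00439 on average. The 4 cholangiocyte markers summed to 9.82 to 11.2 and 8.72 to 9.64. Of these, SOX9 gave 8.22 and 7.20 on average and KRT7 2.20 and 1.69. KRT19 was at 0.298 and 0.386 and EPCAM at 0.00841 and 0.0166.

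Cells given siSHMT2 had less RNA for the shared receptor chain IL6ST and for the ligands IL6 and LIF. IL6ST fell to 18.2% of its siNC mean, IL6 to 25.6% and LIF to 58.0%. The ligand-binding chain IL6R went the other way, from 0.221 ± 0.0722 to 1.07 ± 0.0745 FPKM (SD, n = 3), but its mean over the 6 libraries lay below the minimum of 1 FPKM set for testing. The other 6 genes did not pass the test. Of 10865 genes tested with limma on log2(FPKM + 1), 9.85% were called lower in siSHMT2 and 6.07% higher at a Benjamini-Hochberg adjusted p below 0.05. Among the 9 family genes tested, 3 were called lower and 0 higher. At an unadjusted p below 0.05 the limma counts were 5 lower and 1 higher. Many of all 10865 genes passed that threshold too: CTF1, with an unadjusted limma p of 0.0495, ranked 3270 by p. Limma voom on recovered reads also gave 3 lower and 0 higher in the family after adjustment. Over all 10865 genes it gave 1194 lower and 756 higher. The groups did not overlap for 6 of the 9, against 36.4% of all genes tested. The median difference was -0.30 over these 9 genes and 0.018 over all genes tested. All 9 had a mean of at least 1 FPKM in each group separately, so none entered through 1 group alone.

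**Figure D1:**
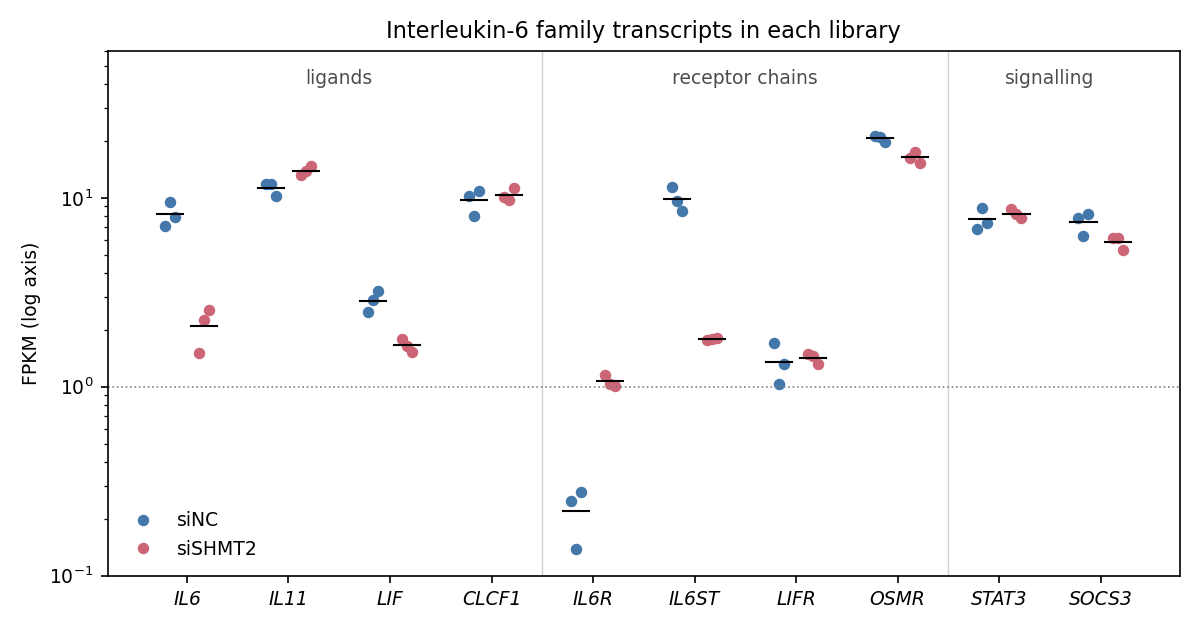
FPKM of each of the 10 genes in every library (points, log axis; black bars are group means, blue siNC and red siSHMT2, n = 3 each; the dotted line marks the 1 FPKM minimum). IL6 and IL6ST in siSHMT2 lie well below siNC with no overlap, IL6R lies above it, and the groups overlap for CLCF1, LIFR and STAT3.

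IL6 (chromosome 7, 22725884 to 22732002 in the table, plus strand) is the founding cytokine of the family. The siNC libraries had 257, 285 and 258 IL6 reads, or 7.10, 9.51 and 7.92 FPKM. The siSHMT2 libraries had 50, 77 and 83 reads, or 1.51, 2.24 and 2.54 FPKM. Every siSHMT2 library lay below every siNC library, and the siNC mean was 3.90 times the siSHMT2 mean. IL6 fell by 1.57 on the log2(FPKM + 1) scale, where adding 1 shrinks the differences of scarce genes (SE 0.156, 95% confidence interval -1.94 to -1.21, limma adjusted p = 0.000822). With limma voom, which has no pseudocount on FPKM, the difference was -1.97. Because these are bulk cultures, fewer cells making a transcript and less of it per cell cannot be told apart.

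The IL6 promoter is among the best studied cytokine promoters, with known sites for NF-kB and C/EBP factors just upstream of the start. It is printed because IL6 had the largest fall of the 4 ligands. The run below is from RefSeq, chr7:22726950-22727199 of GRCh38.p14, plus strand, and ends at the base before the annotated start. Capitals mark the motif matches.
IL6: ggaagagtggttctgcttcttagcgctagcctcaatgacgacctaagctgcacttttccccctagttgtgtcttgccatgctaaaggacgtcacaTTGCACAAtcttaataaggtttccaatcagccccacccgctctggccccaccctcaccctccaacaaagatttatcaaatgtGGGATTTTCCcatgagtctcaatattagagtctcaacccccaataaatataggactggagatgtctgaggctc
The first match, TTGCACAA, fits the C/EBP motif TTGCNNAA at bases 155 to 148 upstream. The second, GGGATTTTCC, fits the NF-kB consensus at bases 73 to 64. Searched on both strands over 250 bases upstream, the C/EBP motif occurred in 9.05% of 35116 promoter windows and the NF-kB consensus in 9.96%. This window held no match to the STAT motifs TTCNNNGAA and its form with 1 more N (6.57% and 5.38% of windows), the AP-1 motif TGANTCA (6.57%), the CRE-like motif TGACGNCA (3.06%) or the TATA motif TATAAA (10.7%). Exact matching misses close variants: the window holds GACGTCA, the CRE-like motif without its leading T, just upstream of the C/EBP match. The 2 matches did not overlap. A match is a run of letters and not evidence that a factor binds.

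LIF (chromosome 22, 30240453 to 30246759, minus strand) signals through LIFR and IL6ST and was the least abundant of the 4 ligands in siNC. Its FPKM was 2.48, 2.87 and 3.20 in siNC, from 168, 161 and 195 reads, and 1.79, 1.65 and 1.52 in siSHMT2, from 111, 106 and 93 reads. The groups did not overlap. LIF fell by 0.53 (SE 0.112, 95% confidence interval -0.79 to -0.27, limma adjusted p = 0.0174). The call was not kept in every fit that left out 1 library. Without siNC replicate 3 the limma adjusted p was 0.0528, and without siSHMT2 replicate 1, 2 or 3 it was 0.0592, 0.0671 or 0.0779. The differences in these fits lay between -0.57 and -0.47, near that with all libraries. Calls over all genes also fell without 1 siSHMT2 library, from 1070 lower to between 498 and 592. The LIF call was also lost after rescaling to TPM (-0.59, adjusted p = 0.0571) and with no filter on low values (-0.53, adjusted p = 0.0650).

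IL11 (chromosome 19, 55364382 to 55370463, minus strand), a cytokine of fibroblasts and stellate cells, had the highest mean of the 4 ligands in both groups, with a siNC range that overlapped that of CLCF1. Its FPKM was 11.8, 11.9 and 10.2 in siNC and 13.2, 13.8 and 14.8 in siSHMT2. All siSHMT2 libraries lay above all siNC libraries, but the difference of 0.28 did not pass the test (SE 0.102, 95% confidence interval 0.043 to 0.52, limma adjusted p = 0.108). It passed only with array weights, which weight each library by its scatter (0.33, adjusted p = 0.00984). The promoter window of IL11 held 1 match, TGAGTCA, to the AP-1 motif, at bases 96 to 90 upstream.

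CLCF1 (chromosome 11, 67364168 to 67374177, minus strand) encodes a cytokine that acts on the receptor for ciliary neurotrophic factor. Its FPKM was 10.3, 8.01 and 10.8 in siNC and 10.1, 9.76 and 11.3 in siSHMT2, so the groups overlapped. The difference was 0.098 (SE 0.127, 95% confidence interval -0.20 to 0.39, limma adjusted p = 0.656). Without siNC replicate 2 it was -0.021, and with array weights -0.034. The gene shares its locus with RAD9A on the opposite strand, which had 516 to 776 reads per library. No source used here says whether strand was used in counting.

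The balance among the 4 ligands shifted within libraries. IL6 made up 22.4%, 29.5% and 24.6% of their summed FPKM in siNC and 5.68%, 8.17% and 8.41% in siSHMT2. IL11 went from 37.3%, 36.8% and 31.9% to 49.6%, 50.3% and 49.1%. The ratio of IL6 to IL11 was 0.602, 0.800 and 0.773 in siNC and 0.115, 0.163 and 0.171 in siSHMT2. The ratios of IL6 to LIF and to CLCF1 were 2.31-fold and 4.27-fold lower in siSHMT2, also with no overlap. Each of these 3 ratios gave p = 0.1 in a two-sided exact permutation test, the smallest that 3 against 3 libraries allow. Adjusted over 7 ratios within the family it was 0.117. Such ratios do not depend on how a library was scaled.

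IL6ST (chromosome 5, 55935095 to 55995022, minus strand), the signal-transducing chain shared by most of the family, had the largest fall of the 9 genes tested. Its FPKM was 11.3, 9.61 and 8.55 in siNC, from 2007, 1408 and 1361 reads, and 1.76, 1.78 and 1.82 in siSHMT2, from 286, 299 and 291 reads. The siSHMT2 libraries lay close together and far below siNC. IL6ST fell by 1.95 (SE 0.113, 95% confidence interval -2.21 to -1.69, limma adjusted p = 0.000122). It ranked 14 of 10865 genes by p. The siNC mean was 5.50 times the siSHMT2 mean. A processed pseudogene on the opposite strand inside the locus had 69 to 128 reads per library, with overlapping groups, and the pseudogene IL6STP1 on another chromosome was listed at 0 throughout.

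The words GACTTTA and ACTTTAA in 3′ untranslated regions had been picked on these same libraries, so the following describes the family and tests nothing. At least 1 of them stood in 57.5% of 961 genes called lower, 10.5% of 590 called higher and 21.6% of 7834 not called, all protein-coding. The regions of genes called lower were also longer and poorer in GC, with medians of 1952 bases and 38.0%, against 1244 bases and 43.7% for genes not called. The longest annotated 3′ untranslated region of IL6ST in GENCODE release 29 (GRCh38) has 7641 bases and holds 4 such words, the most of the 10 genes. LIFR, OSMR and STAT3 hold 1 each, and the other 6 hold none. The sites are printed because the gene with the largest fall carries 4 of the 7, while IL6 and LIF fell with none; capitals mark the word, all on the transcribed strand.
IL6ST, chr5:55940884-55940912: tctgggattctACTTTAAgcactacataa
IL6ST, chr5:55940863-55940891: ctacataaactGACTTTAtcctcagacta
IL6ST, chr5:55938596-55938624: gtggctttatcACTTTAAatctttagtgt
IL6ST, chr5:55938101-55938129: gaaatgttacaACTTTAAaatgttacaaa
LIFR, chr5:38476522-38476550: agccaatcagaACTTTAAaaaaaaaaaag
OSMR, chr5:38935416-38935444: cagttgtgttaGACTTTAgggccagtatt
STAT3, chr17:42313345-42313373: ttgctgtatctACTTTAActtccagaaat
The IL6ST and LIFR regions are also the longest of the family, at 7641 and 6632 bases, and the poorest in GC besides IL6, at 35.3% and 34.4%. Among 9385 tested protein-coding genes with such a region of at least 50 bases, 24.6% held either word, and the median region had 1326 bases and 43.2% GC. The first and second IL6ST sites lie close enough for their printed windows to overlap. Of the 4 genes with a word, 1 was called lower, beside 553 of the 2309 searched genes that held either word.

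The promoter of IL6ST is shown beside that of IL6 because both genes fell by more than 1.5 on the log2 scale. It comes from RefSeq, chr5:55994964-55995213 of GRCh38.p14, minus strand, and ends at the base before the annotated start. The capitals mark the single match, GGAGCGCCCC, which fits the NF-kB consensus on the opposite strand at bases 53 to 44 upstream.
IL6ST: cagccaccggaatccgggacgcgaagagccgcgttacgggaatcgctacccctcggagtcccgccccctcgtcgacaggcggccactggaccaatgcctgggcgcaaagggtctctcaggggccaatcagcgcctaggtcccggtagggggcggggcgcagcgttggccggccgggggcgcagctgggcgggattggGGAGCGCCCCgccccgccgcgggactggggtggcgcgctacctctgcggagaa
The window is GC-rich, at 73.6% against 47.6% for IL6 and a median of 58.0% over all promoter windows. None of the other motifs matched in it, and the window of IL6R held no match to any of the motifs searched. OSMR and LIFR, neither of them called, also held a C/EBP match. The windows of LIFR held the only STAT matches of the family, and TATA matches as well. Those of STAT3 and SOCS3 held no match.

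IL6R (chromosome 1, 154405193 to 154469450, plus strand) gives cells the ability to bind IL6 and is best known from hepatocytes and leukocytes. Its FPKM was 0.248, 0.139 and 0.276 in siNC, from 28, 13 and 28 reads, and 1.15, 1.04 and 1.01 in siSHMT2, from 119, 111 and 103 reads. The lowest siSHMT2 library was far above the highest siNC library, and the siSHMT2 mean was 4.82 times the siNC mean. The difference was 0.76 on the log2(FPKM + 1) scale. It passed the test when no filter was applied (limma adjusted p = 0.0159). With limma voom on genes with at least 10 reads in at least 3 libraries, a setting chosen after the values were seen, the difference was 2.28 (SE 0.305, adjusted p = 0.000482). The antisense gene IL6R-AS1 had 0 or 1 read per library. The summed levels of the hepatocyte and leukocyte marker lists, given above, overlapped between the groups, and CD14 was at 355 to 461 reads per library and SERPINA1 at 14 to 75. Their part in the IL6R difference was not tested.

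OSMR (chromosome 5, 38845858 to 38945596, plus strand), the oncostatin M receptor chain, was the most abundant of the 10 genes in both groups. Its FPKM was 21.3, 21.0 and 19.8 in siNC and 16.3, 17.5 and 15.3 in siSHMT2, with no overlap. The difference of -0.32 did not pass the test (SE 0.0983, 95% confidence interval -0.55 to -0.094, limma adjusted p = 0.0644). With array weights it did (-0.28, adjusted p = 0.0135). LIFR (chromosome 5, 38474668 to 38608354, minus strand), the LIF receptor chain, had FPKM of 1.70, 1.04 and 1.32 in siNC and 1.49, 1.46 and 1.33 in siSHMT2. These groups overlapped, and the difference was 0.053 (SE 0.133, 95% confidence interval -0.26 to 0.36, adjusted p = 0.826). It was -0.045 without siNC replicate 2.

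**Figure D2:**
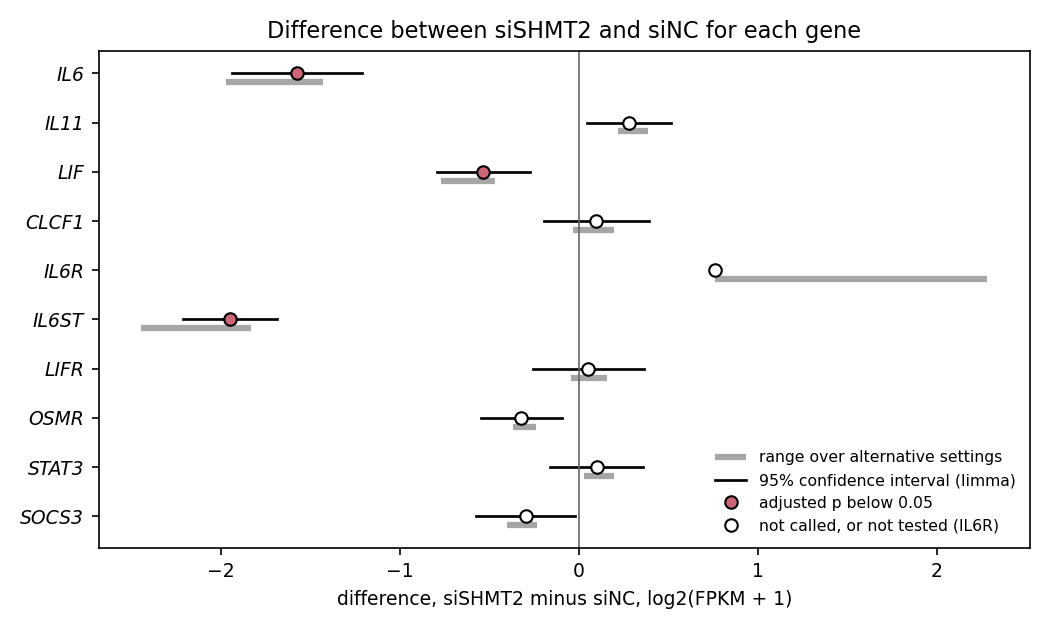
Difference between siSHMT2 and siNC on the log2(FPKM + 1) scale for each gene (circles; filled where the limma adjusted p was below 0.05), with 95% confidence intervals (black lines) and the range over alternative settings (grey bars, which for voom are log2 differences of reads). IL6ST, IL6 and LIF lie left of 0 with their intervals, and IL6R, not tested, lies at 0.76.

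The receptor chains stood in another proportion to each other. IL6ST made up 32.7%, 30.2% and 28.6% of the summed FPKM of the 4 chains in siNC and 8.51%, 8.17% and 9.34% in siSHMT2. IL6R went from 0.716%, 0.437% and 0.922% to 5.55%, 4.76% and 5.19%. For each unit of IL6R FPKM there were 45.7, 69.1 and 31.0 units of IL6ST in siNC and 1.53, 1.72 and 1.80 in siSHMT2. The ratio of IL6ST to LIFR was 5.86-fold lower in siSHMT2 and that of IL6ST to OSMR 4.32-fold lower. None of these 3 ratios overlapped between the groups (two-sided exact permutation p = 0.1 each, the smallest possible, and 0.117 adjusted over 7 ratios). These receptor ratios were chosen after the values had been seen.

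**Figure D3:**
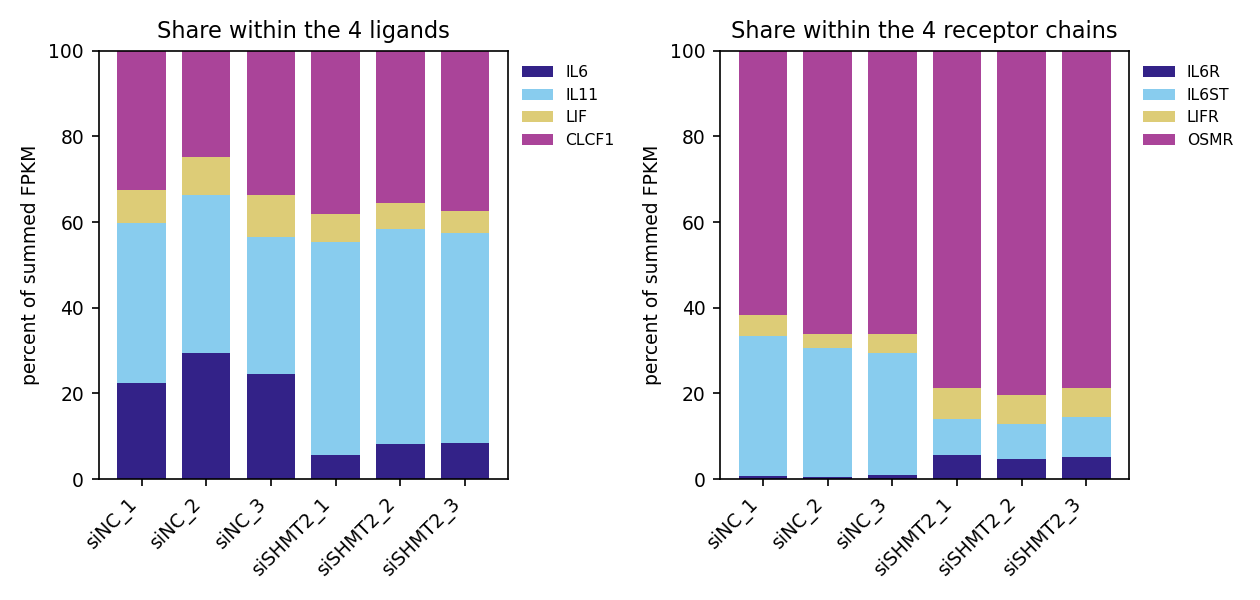
Share of each gene in the summed FPKM of the 4 ligands (left) and of the 4 receptor chains (right), stacked to 100% for each library. The IL6 share is 22.4% to 29.5% in siNC and 5.68% to 8.41% in siSHMT2, and the IL6ST share 28.6% to 32.7% and 8.17% to 9.34%.

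STAT3 (chromosome 17, 42313324 to 42388568, minus strand), the main transcription factor activated by these receptors, had FPKM of 6.84, 8.84 and 7.35 in siNC and 8.72, 8.23 and 7.82 in siSHMT2. The groups overlapped, and the difference was 0.098 (SE 0.112, 95% confidence interval -0.16 to 0.36, limma adjusted p = 0.604). SOCS3 (chromosome 17, 78356778 to 78360077, minus strand), which STAT3 induces and which inhibits IL6ST signalling, had FPKM of 7.84, 6.26 and 8.16 in siNC and 6.11, 6.09 and 5.27 in siSHMT2. Those groups did not overlap, though siNC replicate 2 lay close to the highest siSHMT2 library. The SOCS3 difference of -0.30 did not pass the test (SE 0.119, 95% confidence interval -0.57 to -0.022, adjusted p = 0.138). It passed without siNC replicate 2 (-0.40, adjusted p = 0.0351) and with array weights (-0.36, adjusted p = 0.00941). The ratio of SOCS3 to STAT3 was 1.15, 0.708 and 1.11 in siNC and 0.701, 0.740 and 0.675 in siSHMT2, and overlapped (exact permutation p = 0.2). RNA levels do not show phosphorylation of STAT3, which was not measured.

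FPKM is scaled to gene length, so levels can be ordered across genes. In siNC the means ran from OSMR (20.7) through IL11 (11.3), IL6ST (9.83), CLCF1 (9.69), IL6 (8.18), STAT3 (7.68) and SOCS3 (7.42) to LIF (2.85), LIFR (1.35) and IL6R (0.221). Each neighbouring pair from IL11 to SOCS3 overlapped in range, so the order of neighbours there is not resolved. Some genes further apart did separate. The lowest IL11 value (10.2) lay above the highest values of IL6 (9.51), STAT3 (8.84) and SOCS3 (8.16). In siSHMT2 the order was OSMR (16.4), IL11 (13.9), CLCF1 (10.4), STAT3 (8.25), SOCS3 (5.83), IL6 (2.10), IL6ST (1.79), LIF (1.65), LIFR (1.43) and IL6R (1.07). There only the neighbours IL6 and IL6ST, and IL6ST and LIF, overlapped. IL6ST went from rank 3 to rank 7 and IL6 from rank 5 to rank 6.

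Other genes of the pathway were taken from 7 lists of 67 genes, of which 47 were tested, 14 were called lower and 2 higher, beside 9.85% and 6.07% of all genes tested. Beside each list median below, the median over all genes tested was 0.018. Of the remaining ligands and receptor chains, all but CTF1 and IL11RA had a mean below the 1 FPKM minimum for testing. CTF1, which encodes cardiotrophin 1, was the only one of 7 other ligands tested, at 4.23 ± 0.879 FPKM in siNC and 5.41 ± 0.242 in siSHMT2 (SD, n = 3; limma adjusted p = 0.164). Oncostatin M itself (OSM) was at 0.00897 and 0 FPKM on average, and IL27 and IL31 were listed at 0. IL11RA, the alpha chain for IL11, was the only one of 4 other receptor chains tested, at 1.44 ± 0.253 and 1.34 ± 0.224 FPKM (adjusted p = 0.801).

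Of 6 tested kinases, adaptors and sheddases, 2 were lower and 1 higher (list median -0.011). JAK1, the main kinase bound to IL6ST, fell from 11.7 ± 0.823 to 6.90 ± 0.359 FPKM (SD, n = 3), a log2 difference of -0.69 (limma adjusted p = 0.00319). PTPN11, the phosphatase SHP2 recruited to IL6ST, rose by 0.77 (adjusted p = 0.0166), and ADAM10, a protease that can shed IL6R, fell by 0.44 (adjusted p = 0.0408). Among the other STAT genes, STAT2, a mediator of interferon responses, fell by 0.48 (adjusted p = 0.0210). Of 9 tested inhibitors besides SOCS3, SOCS1 fell by 1.02 (adjusted p = 0.00144) and SOCS5 by 0.57 (adjusted p = 0.0229), and 7 were not called (list median -0.12). Regulators of IL6 transcript stability had 2 of 8 lower (list median -0.16), the Roquin paralogue RC3H2 (-0.42, adjusted p = 0.0224) and the AU-rich element binder ZFP36L1 (-0.51, adjusted p = 0.0219). JAK1 and SOCS1 kept their call in all 6 fits that left out 1 library. Without any 1 of the siSHMT2 libraries, STAT2, SOCS5, RC3H2 and ZFP36L1 were not called, and STAT2 and SOCS5 were also lost without siNC replicate 3 (adjusted p over these fits from 0.0566 to 0.110). Their differences in those fits were -0.51 to -0.43 for STAT2, -0.62 to -0.51 for SOCS5, -0.43 to -0.40 for RC3H2 and -0.57 to -0.46 for ZFP36L1, near those with all libraries. PTPN11 was lost without siNC replicate 3 or siSHMT2 replicate 1 or 2 (0.66 to 0.79, adjusted p = 0.0560 to 0.0656), and ADAM10 without any library but siNC replicate 2 (-0.51 to -0.34, adjusted p = 0.0527 to 0.146).

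Genes known as STAT3 targets had 6 of 17 tested members lower and 1 higher, with a list median of -0.38. Most of them also answer to other factors, so the list is not a measure of STAT3 activity. The 4 with the smallest adjusted p were IRF1, an interferon-response factor (lowered to 45.2% of a siNC mean of 9.96 ± 0.427 FPKM, SD, n = 3, limma adjusted p = 0.00122), FOSL1, an AP-1 subunit (to 43.3% of a mean of 295, adjusted p = 0.00174), BCL2L1, an inhibitor of apoptosis (from 41.5 ± 4.69 to 75.7 ± 2.89, adjusted p = 0.00317), and CCND1, cyclin D1 (from 307 ± 74.5 to 130.0 ± 7.16, adjusted p = 0.00425). These 4 kept their call in the 6 fits without 1 library. The other 3 called lower, CEBPB, JUNB and PIM1, are a C/EBP factor, an AP-1 subunit and a kinase. All 3 were lost without any 1 of the siSHMT2 libraries, and JUNB and PIM1 also without siNC replicate 1 or 3 (adjusted p = 0.0515 to 0.183). In those fits the differences were -0.64 to -0.61 for CEBPB, -0.50 to -0.35 for JUNB and -0.44 to -0.33 for PIM1, against -0.62, -0.47 and -0.39 with all libraries. Among the genes named from the 7 lists, TPM also ended the calls of ADAM10, STAT2, SOCS5, RC3H2, ZFP36L1, JUNB and PIM1 (-0.58 to -0.31, adjusted p = 0.0667 to 0.260). Testing with no filter ended the same calls and that of PTPN11 with unchanged differences (adjusted p = 0.0505 to 0.121). FPKM from plain read sums ended all of those lost with TPM except STAT2 (-0.52 to -0.31, adjusted p = 0.0634 to 0.161), and PIM1 was also lost without the intensity trend (adjusted p = 0.0503). The acute phase genes SERPINA3, SAA1, SAA2 and LBP, which IL6 induces in hepatocytes, lay below the filter.

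**Figure D4:**
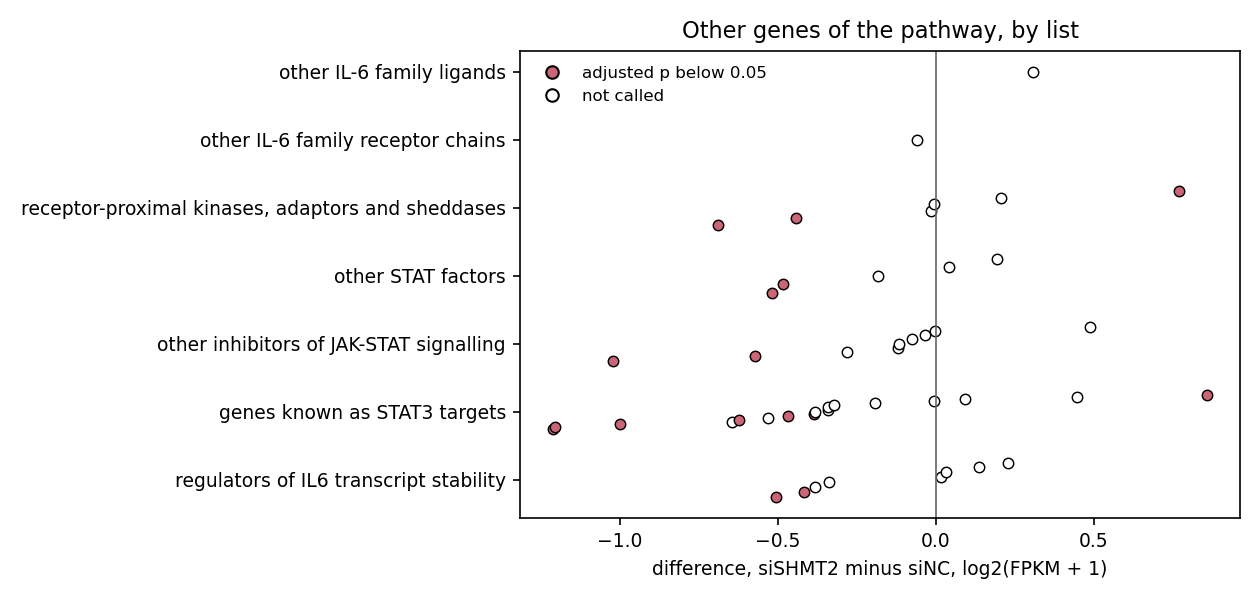
Difference between siSHMT2 and siNC on the log2(FPKM + 1) scale for the 47 tested genes of 7 pathway lists (1 circle per gene; filled where the limma adjusted p was below 0.05). Filled circles lie mostly left of 0, with 14 lower and 2 higher, PTPN11 and BCL2L1.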

How the data were processed

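RNA-seq of 6 LX2 libraries was used, grouped and numbered by sample title. The authors deposited FPKM values per gene. HISAT2 2.0.5, featureCounts 1.5.0-p3 and build hg18 are named in the submitters' processing notes, but all 10 genes overlapped their GENCODE release 29 (GRCh38) positions, 6 of them with identical ends. Total RNA went through a SMARTer mRNA-Seq kit, per the labels' protocols. Multiplying FPKM by gene length gave steps of equal size in each library, from which whole reads were recovered (100% of values whole within 0.02 reads); the library totals behind the FPKM were 0.957 to 1.13 times the read sums.

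Genes with a mean of at least 1 FPKM were tested (10865) with limma 3.58.1 (R 4.3.3) on log2(FPKM + 1) with an intensity trend, and p-values were Benjamini-Hochberg adjusted over all of them. Alternatives were other pseudocounts, filters, scalings (TPM, plain read sums), voom, array weights, a replicate block and leaving out each library. Ratios used exact permutation tests (scipy 1.17.1). Labels do not say whether replicates were separate cultures, so p-values measure only how these samples vary, which may be technical. The genes, lists and words were chosen with earlier results of these data known. Named genes were the 10, SHMT2, PDGFRB, COL1A1, ALB, PTPRC, PECAM1, the 3 genes most correlated with IL6 and, per list, all called genes if 4 or fewer, otherwise the 4 with the smallest adjusted p, or 1 where none was called. Any other gene was named after its values were seen. Some genes of the lists are not reported here. In simulated reads for siSHMT2 against siNC (10865 genes, 200 changed, 5 draws), 21.8% of genes changed 1.5-fold, 65.4% of those changed 2-fold and 95.5% of those changed 4-fold were called, with 0 wrong directions. Far fewer genes were changed there than were called in the data (1070 lower and 659 higher), which makes the adjustment stricter. Counting noise was also added to a spread that already held it. These rates describe the simulated setting and not detection in these data. Promoter windows (8 of the 10 genes matched) are from RefSeq, GRCh38.p14.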

Additional observations from a re-analysis of the deposited data

How the results depend on the processing

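IL6 and IL6ST stayed called lower under all 18 alternatives run, with differences from -1.97 to -1.43 for IL6 (adjusted p at most 0.0101) and from -2.45 to -1.83 for IL6ST (at most 0.00252). The family had 3 genes lower and 0 higher. Array weights gave 5 lower and 1 higher (IL11). No filter gave 1 higher, IL6R, as did voom on genes with 10 reads in 3 libraries. Leaving out 1 library gave 2 to 4 lower and 0 higher. The sign turned for CLCF1 with array weights (-0.034) and without siNC replicate 2 (-0.021; -0.021 to 0.17 without 1 library), and for LIFR without siNC replicate 2 (-0.045; -0.045 to 0.16 without 1 library). The cause was not tested.

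Over all genes, 1070 were lower and 659 higher. The counts were 603 and 333 with no filter, 1976 and 1827 with array weights, 620 and 686 with TPM, and 618 lower at a mean of at least 5 FPKM, where fewer genes were tested. Without 1 library they ran from 498 to 1132 lower and from 229 to 729 higher. The lower share of calls was 61.9%, against 47.5% with TPM, 49.1% with plain read sums as library totals and 52.0% with array weights. TPM shifted the median over all genes from 0.018 to 0.11. No gene of the 9 tested changed sign under either rescaling.

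The replicate block gave 696 lower and 374 higher genes over the whole table, and 2 lower in the family, with LIF lost (-0.53, adjusted p = 0.0588). It also ended the calls of ADAM10, CEBPB, JUNB, PIM1, RC3H2, SOCS5 and ZFP36L1 (adjusted p = 0.0514 to 0.112) at the same differences. Same-numbered libraries did not consistently deviate together (correlations of -0.0183, -0.349 and 0.243 for numbers 1 to 3), and not every library correlated best with its own number. Pairing by number was thus not seen, but such correlations cannot show whether same-numbered samples were handled together. IL6R, at 13 to 28 reads in siNC, is the gene most limited by depth.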

Other observations

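AU-rich words, which mark unstable cytokine transcripts, were counted in the longest annotated 3′ untranslated regions of the family. The word TTATTTATT occurred 6 times in IL11, 2 times each in LIF, CLCF1 and OSMR and once in LIFR, and was not found in IL6, IL6R, IL6ST, STAT3 or SOCS3. It was present in 8.82% of 9385 tested protein-coding genes. The share was 13.8% in those called lower, 8.47% in those called higher and 8.23% in those not called. Regions of genes called lower were also longer and poorer in GC, as given above, and the part of this in the shares was not tested. The shorter word ATTTA occurred 6 times in the 429 bases of IL6. Of the 3 genes called lower, LIF held the longer word and IL6 and IL6ST did not.

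On the log2(FPKM + 1) scale over the 6 libraries, which fall into 2 groups, 13 of 9488 protein-coding genes had a Pearson r with IL6 above 0.99. The genes with the profile most like IL6 were SNAPC3, a subunit of the complex that activates small nuclear RNA genes, TRIM22, an interferon-induced antiviral protein, and TEF, a leucine zipper transcription factor. They fell by 0.89, 0.39 and 0.64. Like IL6, each was lowest in siSHMT2 replicate 1. Both traits follow from picking genes by their match to IL6 over these same libraries, so neither is a separate result. SNAPC3 stood at 2.55, 3.38 and 2.77 FPKM in siNC and 0.831, 1.17 and 1.32 in siSHMT2.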
